A study of Ostrinia furnacalis with 9 samples.

Results

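The peaks described here are those of H3K27me3 in heads of diapause larvae and of non-diapause larvae of the Asian corn borer, Ostrinia furnacalis, a moth whose larvae can arrest development. All peaks of these 2 deposited lists on scaffolds were taken, 3812 at diapause and 3755 at non-diapause, which is 7567 of the 29318 peaks on scaffolds in the 6 lists of the series. The other lists hold H3K27me3 at pre-diapause and H3K9me3 at all 3 stages, and they were used to describe the state of the same places. The stock was reared at 27 °C under 16 h light and 8 h dark a day. Diapause larvae had spent 30 days or more, counted from the moult to the fourth instar, at 20 °C under 12 h light and 12 h dark, and pre-diapause larvae 20 days. The labels name no separate rearing for non-diapause larvae, so temperature, day length and time since the moult cannot be told apart from diapause itself. The labels give neither the number of heads nor whether they were pooled. Heads hold many cell types, and a peak called in a mixture does not say in which of them the mark lay.

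H3K27me3 is the methylation of histone H3 written by the Polycomb repressive complex PRC2. It is read by Polycomb proteins that compact chromatin, and in insects it is best known from Drosophila, where it lies in broad domains over developmental regulators kept silent, such as Hox genes. H3K9me3 marks constitutive heterochromatin, where HP1 proteins bind it over repeats and transposons. The 2 marks are usually found at different loci.

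With 1 list per stage there was no replicate error to compare a stage difference with, and no p-value is given. Ranges in brackets after a share are 95% intervals (exact, Clopper-Pearson). They allow for counting error alone and treat neighbouring peaks as independent. The lists carry no read totals, so depth is unknown, and a place without a call is not shown to lack the mark. A peak is called kept here when it shares at least 1 bp with a peak of the other stage, and diapause-only or non-diapause-only when it does not. Both names refer to these 2 lists and say nothing of pre-diapause.

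About 3 in 5 peaks of either list were kept. Diapause-only peaks numbered 1505 of 3812, or 39.5% (37.9–41.1), and non-diapause-only peaks 1435 of 3755, or 38.2% (36.7–39.8). The kept peaks, 2307 at diapause and 2320 at non-diapause, formed 2298 places when touching peaks were merged. Unpartnered peaks were rarely near misses. A non-diapause peak lay within 1 kb of 62 diapause-only peaks, or 4.12% (3.17–5.25), and a diapause peak within 1 kb of 52 non-diapause-only peaks, or 3.62% (2.72–4.73). The closest unpartnered peak of each list lay 7 bp from a peak of the other stage, and the smallest overlap among places with 1 peak of each list was 11 bp. The median distance to the nearest peak of the other stage on the scaffold was 23.8 kb for diapause-only and 31.2 kb for non-diapause-only peaks.

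The 2 lists differed in which strengths of call went unpartnered. The authors' −log10 q is the confidence of a call in its own list. Among peaks with a −log10 q of 16 or more, 7 of 250 diapause peaks had no non-diapause peak, 2.80% (1.13–5.68), whereas 82 of 409 non-diapause peaks were unpartnered, 20.0% (16.3–24.3). Among the weakest, from 2 to under 4, the order was the opposite: 788 of 1243 diapause peaks, 63.4% (60.6–66.1), against 487 of 916 non-diapause peaks, 53.2% (49.9–56.4). Diapause-only peaks were thus mostly weak calls, with a median −log10 q of 3.93, while non-diapause-only peaks had 5.22. Kept peaks had 6.78 at diapause and 7.30 at non-diapause. Values of −log10 q grow with depth, so the bands of the 2 lists are not on a shared scale.

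**Figure D1:**
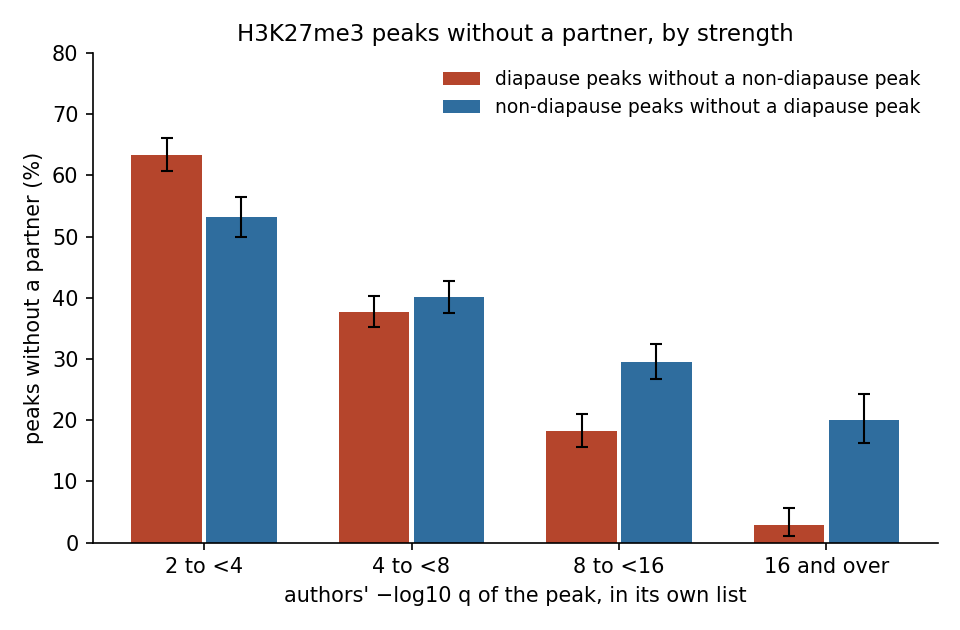
Percentage of peaks without a partner at the other stage in 4 bands of the authors' −log10 q, for the diapause list (red) and the non-diapause list (blue). Bars are shares of 1 list and whiskers are exact 95% intervals for counting error. In the strongest band 2.80% of diapause and 20.0% of non-diapause peaks were unpartnered.

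The 82 strong non-diapause-only peaks lay where both marks were called at non-diapause, as did nearly all kept peaks of that strength. H3K9me3 peaks overlapped 17 of them at diapause, 20.7% (12.6–31.1), against all 82 at non-diapause. At pre-diapause 82 overlapped an H3K27me3 peak and 81 an H3K9me3 peak. Of the 327 kept non-diapause peaks of the same strength, 325 met H3K9me3 at non-diapause and all 327 met H3K27me3 at pre-diapause. At diapause 255 of these 327 met H3K9me3, or 78.0% (73.1–82.4). The 82 lay on 77 scaffolds and had a median width of 470.5 bp and a median fold of 5.68, against 718 bp and 5.63 for the 327 kept ones. By −log10 q the 3 highest lay at NW_021131933.1 124460–124994 (101), NW_021131106.1 132114–133473 (79.0) and NW_021137822.1 33758–34229 (63.3). The second of them had a weak H3K9me3 call at diapause, with a −log10 q of 3.32, while at non-diapause that mark had 107. This band was chosen after its values were seen.

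The 7 strong diapause-only peaks were a mixed set on 7 scaffolds. H3K9me3 peaks lay over 3, 5 and 4 of them in the order non-diapause, pre-diapause, diapause, and pre-diapause H3K27me3 peaks over 3. NW_021131459.1 83–456 had the highest −log10 q, 37.7, and carried both marks at pre-diapause, neither at non-diapause, and no H3K9me3 at diapause. NW_021133552.1 63789–64234 (26.1) carried both marks at every stage except H3K27me3 at non-diapause. NW_021132091.1 3748–4205 (19.3) had H3K9me3 at all 3 stages, with −log10 q values of 19.1, 31.4 and 34.1 in the order non-diapause, pre-diapause, diapause, and H3K27me3 at diapause alone. Its H3K27me3 fold was only 1.94.

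Unpartnered peaks were narrower than kept ones. Median width was 442 bp for diapause-only peaks (quartiles 342 and 655) and 556 bp for kept diapause peaks. It was 421 bp for non-diapause-only peaks (346 and 615.5) and 553 bp for kept non-diapause peaks. A wide peak offers more bases for a 1 bp overlap, and the part of the rule in this gap was not tested. Peaks of 400 bp or less were unpartnered in 626 of 1178 cases at diapause, or 53.1% (50.2–56.0), and in 631 of 1197 at non-diapause, or 52.7% (49.8–55.6). Above 2000 bp the counts were 5 of 76 and 3 of 57. In bases the lists shared about as much: 53.4% of the 2.50 Mb under diapause peaks and 56.0% of the 2.38 Mb under non-diapause peaks lay under peaks of both stages.

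**Figure D2:**
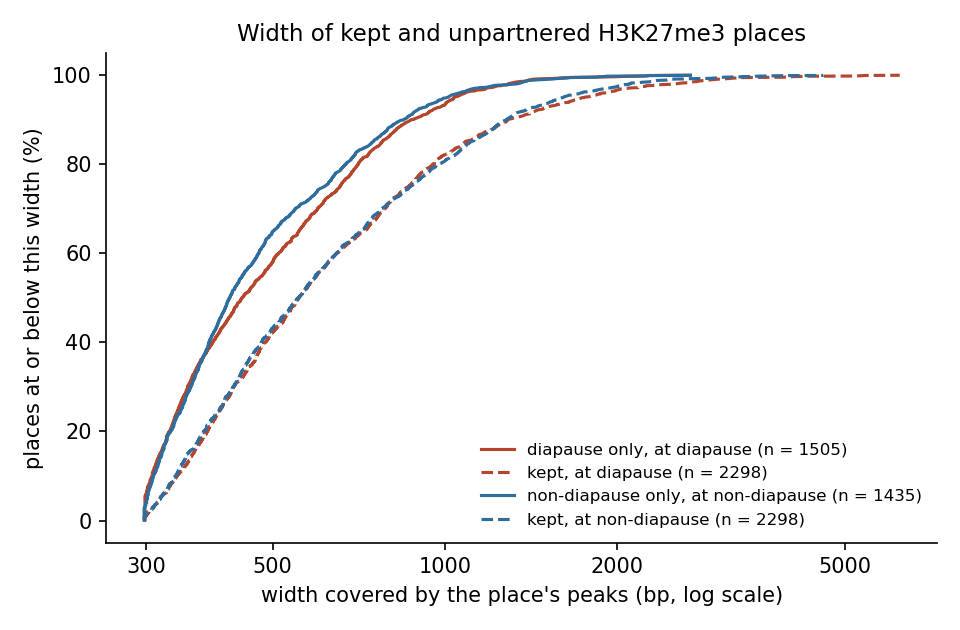
Cumulative percentage of places against the width covered by H3K27me3 peaks, in bp on a log scale, for unpartnered (solid) and kept (dashed) places at diapause (red) and non-diapause (blue). The dashed curves nearly coincide, with medians of single kept peaks at 556 and 553 bp, and the solid curves lie to their left.

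The widest unpartnered peaks differed in the other mark. The widest diapause-only peaks were NW_021131485.1 498574–501253 (2680 bp) and NW_021133251.1 570374–572646 (2273 bp). Neither place had H3K9me3 at any stage, and both had H3K27me3 peaks at pre-diapause. The widest non-diapause-only peaks were NW_021135369.1 19782–22467 (2686 bp) and NW_021137579.1 95764–98040 (2277 bp). Neither mark was called at these 2 places at diapause, whereas H3K9me3 peaks of 2216 and 2232 bp lay there at non-diapause. Both marks were also called there at pre-diapause.

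The classes as a whole also differed in the other mark. At the stage of their own call, 455 of 1505 diapause-only peaks overlapped H3K9me3, or 30.2% (27.9–32.6), against 1299 of 2307 kept diapause peaks, or 56.3% (54.3–58.3). Of the non-diapause-only peaks 999 of 1435 did, or 69.6% (67.2–72.0), against 1932 of 2320 kept non-diapause peaks, or 83.3% (81.7–84.8). The H3K9me3 list is shorter at diapause, with 3504 peaks on scaffolds against 4483 at non-diapause, and its part in shares taken across stages was not tested. Read against 1 H3K9me3 list at a time, the order of the classes depended on the list. The diapause H3K9me3 list met 30.2% of diapause-only peaks and 248 of 1435 non-diapause-only peaks, or 17.3% (15.4–19.3). The non-diapause H3K9me3 list met 418 diapause-only peaks, or 27.8% (25.5–30.1), and 69.6% of non-diapause-only peaks. No H3K9me3 peak was called at any of the 3 stages over 694 diapause-only peaks, 46.1% (43.6–48.7), over 289 non-diapause-only peaks, 20.1% (18.1–22.3), and over 276 kept diapause peaks, 12.0% (10.7–13.4).

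Diapause-only peaks met same-stage H3K9me3 less often than kept diapause peaks in every band of −log10 q. For non-diapause-only peaks this held in the middle bands. Between 4 and 8, same-stage H3K9me3 met 210 of 556 diapause-only peaks, 37.8% (33.7–41.9), and 467 of 917 kept diapause peaks, 50.9% (47.6–54.2). Among non-diapause peaks of that band it met 402 of 562 non-diapause-only peaks, 71.5% (67.6–75.2), and 706 of 838 kept ones, 84.2% (81.6–86.7). Between 8 and 16 the shares were 44.8% and 69.5% for diapause-only and kept diapause peaks, and 89.5% and 95.6% for non-diapause-only and kept non-diapause peaks. From 2 to under 4, same-stage H3K9me3 met 172 of 788 diapause-only peaks, 21.8% (19.0–24.9), and 142 of 455 kept diapause peaks, 31.2% (27.0–35.7). At 16 or more it met 4 of 7 and 209 of 243, with overlapping intervals. In the weakest non-diapause band the shares were 49.9% and 48.3%, and in the strongest 82 of 82 and 325 of 327. The order in these non-diapause bands was the opposite, with overlapping intervals in both.

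**Figure D3:**
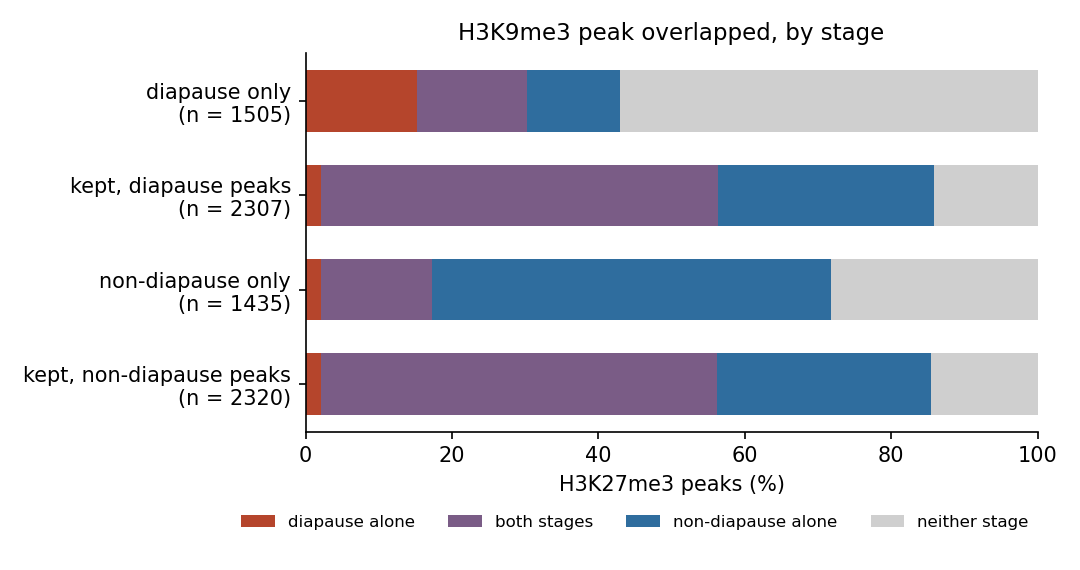
Percentage of H3K27me3 peaks in each class that overlap an H3K9me3 peak at diapause alone, at both stages, at non-diapause alone or at neither. Diapause-only peaks met it at neither stage in 57.0%, and non-diapause-only peaks met it at non-diapause alone in 54.5%.

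Among H3K27me3 peaks with H3K9me3 at their own stage, unpartnered ones more often met no H3K9me3 peak of the other stage than kept ones. The unpartnered ones were also narrower. Median widths were 442 bp for diapause-only and 591 bp for kept diapause peaks, and 426 and 551 bp for non-diapause-only and kept non-diapause peaks. The part of width and strength in these shares was not tested. Of the non-diapause-only peaks with H3K9me3 at non-diapause, 782 of 999 had no diapause H3K9me3 peak, or 78.3% (75.6–80.8). Of the kept non-diapause peaks with it, 679 of 1932 had none at diapause, or 35.1% (33.0–37.3). In the other direction, 229 of the 455 diapause-only peaks with H3K9me3 at diapause had none at non-diapause, or 50.3% (45.6–55.0), against 50 of 1299 kept ones, or 3.85% (2.87–5.04). The marks could also be called at opposite stages. H3K9me3 was called at non-diapause alone over 192 diapause-only peaks, 12.8% (11.1–14.5), close to the 229, or 15.2% (13.4–17.1), with it at diapause alone. It was called at diapause alone over 31 non-diapause-only peaks, 2.16% (1.47–3.05), against 782, or 54.5% (51.9–57.1), with it at non-diapause alone. The series lists 1 input per stage, so chromatin and input may be shared by both marks of a stage. Their part in these shares was not tested.

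Most places of every class also had an H3K27me3 peak at pre-diapause. The mark was called at pre-diapause over 807 diapause-only peaks, 53.6% (51.1–56.2), over 1168 non-diapause-only peaks, 81.4% (79.3–83.4), and over 2211 kept diapause peaks, 95.8% (94.9–96.6). In the band from 4 to under 8 the shares were 65.5% of diapause-only peaks, 84.0% of non-diapause-only peaks and 95.7% of kept diapause peaks. The pre-diapause list is the longest, with 6539 peaks on scaffolds, and the part of its length in these shares was not tested.

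Most kept places had similar widths at both stages. The median log2 ratio of bases covered at diapause over non-diapause was 0.0015 (quartiles -0.24 and 0.24), and 2013 of 2298 places, 87.6% (86.2–88.9), differed by less than 2 times. The narrowest kept peaks were 299 bp at diapause and 298 bp at non-diapause, which leaves narrow places little room for a 2-fold difference. Of 907 kept places with a mean width of 500 bp or less, 5 were at least 2 times wider at diapause and 4 narrower. Between 500 and 1000 bp the counts were 96 and 93 of 980. A single peak of each list made up 2268 of the 2298 places. In these the shorter peak lay within the longer by at least 90% of its length in 1941 cases, 85.6% (84.1–87.0), and the median shift of an edge was 52 bp. The diapause peak lay inside the non-diapause peak in 583 and the reverse held in 584. Across these 2268 places Spearman's rho between the stages was 0.63 for width, 0.69 for −log10 q and 0.59 for fold, as a description of places called in both lists. Within kept places 0.357 Mb were covered at diapause alone and 0.307 Mb at non-diapause alone, beside 1.34 Mb covered at both.

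Larger differences in width went in both directions. At diapause 157 kept places were at least 2 times wider, or 6.83% (5.83–7.94), and 128 were at least 2 times narrower, or 5.57% (4.67–6.59). The wider ones had a median of 1126 bp at diapause and 413 bp at non-diapause, and the narrower ones 437.5 bp at diapause and 1174.5 bp at non-diapause. Pre-diapause, whose width did not enter this choice, sided differently in the 2 sets. On a log scale its width was nearer to diapause in 108 of 153 wider places, 70.6% (62.7–77.7), and in 10 of 124 narrower places, 8.06% (3.94–14.3). In other places with a pre-diapause peak it was nearer to diapause in 867 of 1930, 44.9% (42.7–47.2). Pre-diapause peaks were also the widest in the places within 2 times, with a median of 662 bp against 539 bp at diapause and 542 bp at non-diapause, and the part of this in the 2 shares was not tested.

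Among the 1341 kept places with a −log10 q of at least 5 in both lists, the largest relative spread was at NW_021132293.1 17421–19074, where a diapause peak of 1654 bp met a non-diapause peak of 328 bp. NW_021131106.1 195495–197430 had 1936 bp at diapause and 511 bp at non-diapause, and NW_021137744.1 86907–90806 had 3900 and 1075 bp. Pre-diapause peaks at these 3 places were 1683, 1950 and 3959 bp wide, all close to diapause, and H3K9me3 was called there at every stage. The largest shrinkage was at NW_021134786.1 35998–37449, with 299 bp at diapause and 1452 bp at non-diapause. NW_021132876.1 122173–125671 had 770 bp at diapause and 3499 bp at non-diapause, and NW_021137332.1 150–2640 had 569 and 2491 bp. Pre-diapause peaks there were 1633, 3497 and 2474 bp wide, all close to non-diapause. At diapause no H3K9me3 peak was called at the places on NW_021134786.1 and NW_021137332.1, against peaks of 1342 and 2475 bp at non-diapause. On NW_021132876.1 the H3K9me3 peak was 1644 bp wide at diapause and 3358 bp at non-diapause.

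The balance of wider and narrower places differed with the state of H3K9me3. At 321 kept places without H3K9me3 at either stage, 44 were at least 2 times wider at diapause, 13.7% (10.1–17.96), and 18 narrower, 5.61% (3.36–8.72), with a median log2 ratio of 0.18. At 675 kept places with H3K9me3 at non-diapause alone, 25 were wider, 3.70% (2.41–5.42), and 48 narrower, 7.11% (5.29–9.32), with a median of -0.10. At 1252 places with it at both stages 85 were wider, 6.79% (5.46–8.33), and 61 narrower, 4.87% (3.75–6.21), with a median of 0.01. At the 50 places with it at diapause alone 3 were wider and 1 narrower, with a median of 0.16. The sets also differed in width. Median widths at diapause and non-diapause were 760 and 608 bp with H3K9me3 at neither stage, and 449 and 490 bp with it at non-diapause alone. They were 600 and 594.5 bp with it at both stages, and 450 and 383 bp with it at diapause alone. The part of width in these shares was not tested.

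**Figure D4:**
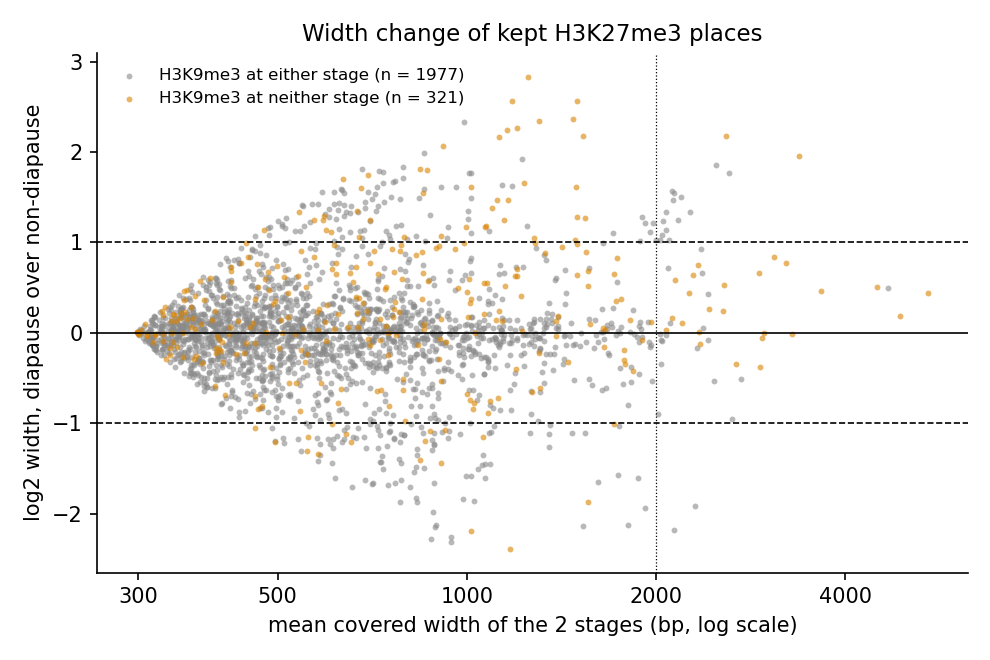
Log2 ratio of the bases covered at diapause over non-diapause at 2298 kept places, against the mean width of the 2 stages in bp on a log scale. Orange points have H3K9me3 at neither stage and grey points at 1 or both. Dashed lines mark 2-fold changes, and right of the dotted line at 2000 bp 17 places lie on or above the upper line and 2 on or below the lower one.

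The widest kept places leaned towards diapause. Of the 61 with a mean width over 2000 bp, 43 were wider at diapause, 70.5% (57.4–81.5), and 17 by at least 2 times against 2 narrower by as much. The 17 were of 2 kinds. Among 26 wide places without H3K9me3 at either stage, 2 were at least 2 times wider, both on NW_021131485.1 at 528619–532846 (4228 bp at diapause, 935 bp at non-diapause) and at 521814–527176 (5363 and 1382 bp). The others formed a uniform set of 15 places on 14 scaffolds, all with H3K9me3 at both stages and all weakly enriched. Their H3K27me3 peaks were 2682 to 4029 bp wide at diapause (median 3056) and 1066 to 1382 bp at non-diapause (median 1223), with folds of 1.73 to 2.59 at diapause and 1.69 to 2.57 at non-diapause. Pre-diapause peaks there had a median of 3629 bp. H3K9me3 covered a median of 100% of these places at diapause and 61.5% at non-diapause. The extent of a place is set by its H3K27me3 peaks, so the full widths of the H3K9me3 peaks were not compared. Among all 19 places over 2000 bp with H3K9me3 at both stages and folds under 3 in both lists, 18 were wider at diapause. The 19 include the 15, which were picked for being at least 2 times wider, so this count was largely fixed by the choice. The rest lay on NW_021137710.1, NW_021130636.1 and NW_021130765.1, each wider by less than 2 times, and on NW_021132876.1, with 770 bp at diapause against 3499 bp. The 15 and the 19 were singled out after their values were seen, and whether the 15 share a sequence was not tested.

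Few places split or fused. A single diapause peak spanned several non-diapause peaks at 21 places, 0.914% (0.567–1.39), and a single non-diapause peak spanned several diapause peaks at 9, 0.392% (0.179–0.742). The most fused one was NW_021133095.1 22656–26704, where 1 diapause peak of 4049 bp took in 3 non-diapause peaks with 2376 bp in all, and no H3K9me3 was called at any stage. At NW_021132286.1 1366195–1368255 a diapause peak of 2061 bp spanned 2 non-diapause peaks. H3K9me3 covered the same stretch at all 3 stages there. Among split places NW_021133589.1 14439–17843 had 2 diapause peaks and NW_021135711.1 283118–285628 likewise, each over 1 non-diapause peak.

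The 3 strongest kept places had nearly the same width at both stages. Ranked by the lower −log10 q of the 2 lists, NW_021134836.1 1–881 came first, with 877 bp at diapause and 881 bp at non-diapause. Its peak started at base 1 of the scaffold in both lists, so the scaffold start limits its width. NW_021137194.1 1095–1586 had 475 and 489 bp, and NW_021136407.1 76424–76959 had 536 and 517 bp. All 3 carried H3K9me3 at every stage.

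Kept and unpartnered places were spread over most marked scaffolds. Of 1117 scaffolds with a peak in either list, 843 had a kept place, 646 a diapause-only and 661 a non-diapause-only place, and 356 had all 3. Diapause-only places outnumbered non-diapause-only ones on 371 scaffolds, were outnumbered on 401 and were equal on 345.

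The 10 scaffolds richest in each class held 13.0% of diapause-only and 8.36% of non-diapause-only peaks. For diapause-only places these were led by NW_021135154.1 with 86, NW_021131364.1 with 22, and NW_021132047.1 and NW_021134911.1 with 13 each. For non-diapause-only places they were led by NW_021135154.1 with 42, and NW_021137252.1 and NW_021137693.1 with 10 each. On NW_021135154.1 86 of 151 diapause peaks had no partner, 57.0% (48.7–65.0), and 42 of 109 non-diapause peaks, 38.5% (29.4–48.3), beside 39.5% and 38.2% in the whole lists. Some scaffolds held places of 1 class in sequence. The longest run of neighbouring diapause-only places had 6, found on NW_021131364.1, NW_021132047.1 and NW_021135154.1 within 34.5, 25.4 and 19.1 kb. The longest non-diapause-only run had 7 and was spread over 665 kb of NW_021131650.1, which had no other H3K27me3 place of the 2 stages. The longest kept run had 9, over 748 kb of NW_021131305.1.

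Diapause-only peaks were the more clustered unpartnered class. Another diapause-only peak lay within 10 kb of 325 of them, 21.6% (19.5–23.8), while another non-diapause-only peak lay within 10 kb of 189 non-diapause-only peaks, 13.2% (11.5–15.0). Without NW_021135154.1 the shares were 18.2% (16.2–20.3) and 12.4% (10.7–14.3). With only the 3000 strongest peaks per list they were 13.5% and 9.63%, and at a −log10 q of at least 3 they were 16.0% and 10.5%. Kept peaks had 17.9% at diapause and 18.9% at non-diapause. Chains of at least 3 peaks of a class with gaps of up to 10 kb numbered 33 for diapause-only peaks, with 139 peaks, and 10 for non-diapause-only peaks, with 33 peaks. Off NW_021135154.1 they numbered 22 and 8. Of the unpartnered classes, the longest chain off that scaffold was 9 diapause-only peaks on NW_021131540.1 at 166135–215497. Kept peaks formed 30 such chains in either list, the longest off that scaffold with 10 diapause and 12 non-diapause peaks on NW_021131485.1.

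Clusters drawn over all classes had more cover at diapause in most cases, and most had no H3K9me3. Joining places across gaps of up to 10 kb gave 43 clusters of at least 5 places on 26 scaffolds, with 161 diapause-only, 133 kept and 63 non-diapause-only places. H3K27me3 peaks covered 176.9, 301.8 and 287.8 kb of them in stage order, from non-diapause over pre-diapause to diapause. The diapause cover was 1.63 times that at non-diapause, against 1.05 times in the whole lists, and 34 of the 43 clusters had more cover at diapause. Off NW_021135154.1 it was 1.71 times, with 23 of 30 clusters. Diapause-only places, the more clustered unpartnered class, counted towards the 5. Some clusters, such as that on NW_021131411.1 with 5 diapause-only places and 1 kept place, thus qualified through them. The larger cover at diapause is therefore not separate from the clustering of diapause-only peaks. H3K9me3 peaks covered 20.0, 23.7 and 13.1 kb of the 43 clusters in stage order, and 26 clusters had none at any stage. In these clusters 25 of 133 kept places were at least 2 times wider at diapause, 18.8% (12.5–26.5), against 132 of 2165 outside, 6.10% (5.13–7.19). Of the 133, 13 met H3K9me3 at diapause and 18 at non-diapause. Most are thus among the 321 kept places without H3K9me3 at either stage, and the shares of the 2 sets are not separate results. The clusters were drawn after other results had been seen, and depth of the libraries, which could move weak calls such as these, is unknown.

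**Figure D5:**
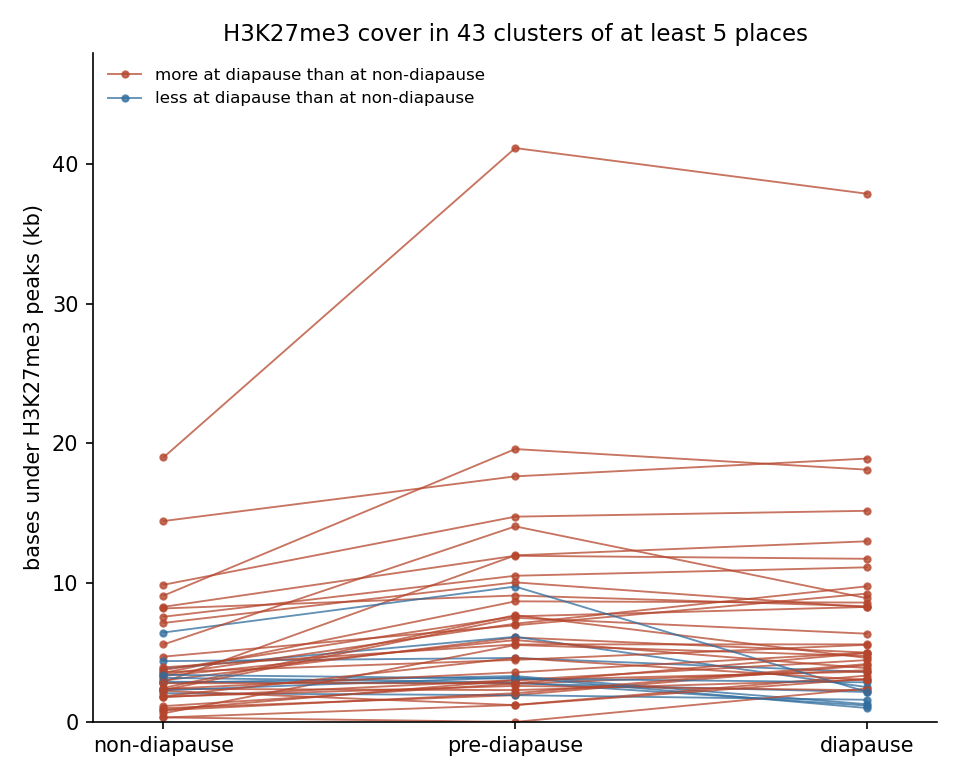
Bases under H3K27me3 peaks, in kb, at the 3 stages in each of 43 clusters of at least 5 places, 1 line a cluster and 1 list a stage. The 34 clusters with more cover at diapause than at non-diapause are red and the 9 with less are blue, and 35 of the 43 have more cover at pre-diapause than at non-diapause.

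The cluster with the most cover was on NW_021131485.1 at 493959–562956. Its 17 places were 11 kept and 6 diapause-only ones, with 0 non-diapause-only. H3K27me3 covered 19.0 kb at non-diapause, 41.2 kb at pre-diapause and 37.9 kb at diapause, and 5 of the kept places were at least 2 times wider at diapause while 0 were as much narrower. H3K9me3 had 0 peaks in it at each stage. On NW_021131540.1 at 154829–237197 cover was 2.85, 12.0 and 13.0 kb in stage order, with 12 diapause-only places and 1 non-diapause-only place. On NW_021131364.1 at 1311–64550 it was 9.06, 19.6 and 18.1 kb. The lowest ratio of diapause to non-diapause cover was on NW_021135154.1 at 2087684–2125328, with 6.42, 9.71 and 2.15 kb and 6 of 10 places non-diapause-only. Clusters with less cover at diapause also lay on NW_021131584.1 at 597657–630715 (3.16, 2.84 and 1.17 kb) and NW_021131558.1 at 385300–407679 (2.80, 3.29 and 1.27 kb). H3K9me3 was called in both of these at every stage, and on NW_021131584.1 it covered 3.48, 5.82 and 2.56 kb in stage order.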

How the data were processed

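ChIP-seq peak lists of H3K27me3 and H3K9me3 from larval heads were read as deposited. The submitters' processing notes name Bowtie2, Picard, MACS2, ChIPseeker and deepTools, without versions or settings. The genome build, the background library and any pooling are not given in the sources used here. Each list has 9 columns and no header, read as the MACS2 broad-peak layout, and positions are written 1-based. The deposited fold is taken as a ratio over the background of the peak caller. Likewise deposited were a score, equal to 10 times −log10 q, and −log10 of p and of q, all from the authors' peak caller. They were computed within a list, and no shared scale is assumed where they are set side by side between lists. The lowest −log10 q in the 2 lists was 2.04.

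Peaks on 1 sequence named as other than a scaffold, taken as mitochondrial from its name and length, were left out (1 at diapause, 5 at non-diapause). Overlaps, places, runs and clusters were computed in Python 3.11.15 (pandas 2.3.3, numpy 2.4.6; intervals from scipy 1.17.1). Overlaps and the width ratios of places were checked on simulated lists, and neighbours within 10 kb on a small made-up list. Runs, chains and clusters were not checked in this way. Width of a place is the sum of its peaks at a stage. Named places were the 3 highest by −log10 q and 2 widest of each unpartnered class, the 3 largest and 3 smallest width ratios among the 1341 kept places with −log10 q of at least 5 in both lists, the 3 strongest kept places, the 2 with most peaks of each list, and leading scaffolds and runs. Other places named were chosen after their values were seen. Classes, rules and lists were chosen with earlier results of these data known. The RefSeq table used here places 0 of 17154 genes on a named sequence, so genes, head markers and the sequence under peaks were not analysed here.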

Additional observations from a re-analysis of the deposited data

Results flagged for a closer look

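The sequence left out of the main comparisons, taken as mitochondrial from its name and length, had H3K27me3 peaks at both stages. It was kept in only as an alternative setting. The highest H3K27me3 fold there was 11.4 at diapause, where 1 peak covered 14535 bp, and 4.46 at non-diapause, where 5 peaks covered 9508 bp. H3K9me3 had peaks there too, with a highest fold of 10.5 at diapause (1 peak, 14512 bp) and 6.26 at non-diapause (3 peaks, 13044 bp). At pre-diapause each mark had 1 peak, with folds of 4.97 for H3K27me3 and 5.62 for H3K9me3. Mitochondrial DNA is known to carry no histones. No input list was used here, and the cause was not tested.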

How the results depend on the processing

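No paired analysis was possible because each stage had 1 list. Under the alternatives 48 recomputed values moved by less than their own interval and 19 moved further. The median log2 width ratio of kept places, 0.0015, was -0.0064 at a −log10 q of at least 3 and -0.012 among the 3000 strongest, so its sign is not fixed. With at least 50% of a peak covered, 54.8% of diapause and 56.9% of non-diapause peaks were kept, and with a peak within 1 kb counted as a partner 62.1% of diapause peaks were. At a width limit of 1.5 times, 13.2% of kept places were wider at diapause and 11.5% narrower. H3K9me3 of the same stage met 34.9% of diapause-only and 61.5% of non-diapause-only peaks among the 3000 strongest of each list, and 72.3% of non-diapause-only peaks with a −log10 q of at least 3. Another diapause-only peak lay nearby for 16.0% at a −log10 q of at least 3, 13.5% among the 3000 strongest, 24.5% under 50% overlap, 14.8% within 5 kb, 42.8% within 50 kb, 18.2% without the richest scaffold and 19.4% with partners within 1 kb. For non-diapause-only peaks these shares were 10.5% at a −log10 q of at least 3, 9.63% among the 3000 strongest, 8.92% within 5 kb and 32.4% within 50 kb. Partners within 1 kb and the richest scaffold left out were alternatives chosen after seeing the data. The cause of these moves was not tested. Depth is unknown, so weak calls limit every unpartnered class.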
